A study of Mus musculus with 9 samples.

Results

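Il7r, Il2rb and Cish encode 2 lymphoid cytokine receptor chains and an inhibitor that those receptors induce, and their log ratios were followed on 9 dual-colour arrays of castrated against sham-operated mice. The arrays hold 4 features of these 3 genes among 11552 features in all: 1 of Il7r, 2 of Il2rb and 1 of Cish. A feature was taken where the platform annotation gives 1 of the 3 symbols alone, with the current symbol looked up by gene ID, and all 4 passed the filter that kept 8885 features for testing. The 3 genes were chosen with the castration ratios of these same arrays known, that is, selected on measured values. Their castration ratios are therefore given as a description, without a test.

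The mice were C57BL/6. The treated mice were castrated at 7 weeks and each was paired with a sham-operated mouse of the same age, and the design text gives 3 such mouse pairs per group. Bone of the femur, tibia and humerus was taken from young mice of 17 weeks and old mice of 59 weeks, which left 3 young bone arrays, 3 young marrow arrays and 3 arrays of old specimens labelled bone marrow. Marrow is said to have been separated from bone for the young mice alone, and the RNA protocol of the arrays speaks of pulverised bone, so the old specimens may hold bone as well. Since castration was at 7 weeks throughout, the old mice were also longer past castration. Age, time since castration and specimen type cannot be told apart in the old group. The labels do not say if a young bone array and a young marrow array share their mice. The deposited values are ratios without levels, so the labelled tissue could not be checked against the level of its markers, and signal over background is unknown. In these bulk samples, fewer cells of a type and less RNA per cell cannot be told apart.

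The receptor chain encoded by Il7r joins the common gamma chain to bind interleukin 7, the cytokine on which early B cell development in mouse marrow and T cell development in the thymus depend. Il2rb encodes the beta chain shared by the interleukin 2 and interleukin 15 receptors, which is prominent on natural killer cells and on activated and memory T cells. Both receptors signal through Jak1, Jak3 and the transcription factor Stat5, and Cish, a member of the Socs family, is a textbook Stat5 target whose protein dampens the same signalling. Interleukin 3, erythropoietin and growth hormone act through Stat5 too, so Cish is not a readout of lymphoid receptors alone.

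Because Stat5 binds the palindrome TTCNNNGAA, which reads the same on both strands, the stretches around its matches near the start of Cish and of Il7r are shown, 5′ to 3′ on the strand of the gene, from RefSeq on GRCm38.p6. The Cish stretch is chr9:107296579-107296678 on the plus strand and the Il7r stretch is chr15:9529967-9530066 on the minus strand, and capitals mark the matches.
Cish: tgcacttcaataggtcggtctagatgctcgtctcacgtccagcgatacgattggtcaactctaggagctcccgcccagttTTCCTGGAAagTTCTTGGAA
Il7r: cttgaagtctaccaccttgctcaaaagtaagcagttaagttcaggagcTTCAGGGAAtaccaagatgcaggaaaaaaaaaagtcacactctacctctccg
The 2 matches of Cish lie side by side, at bases 1 to 9 and 12 to 20 counted from the gene start that its RefSeq promoter window uses. For Cish this is also the outermost start of the gene, so both matches lie just inside the gene. The match of Il7r lies upstream, at bases -142 to -134 from the start its window uses. That start lies 65 bases inside the outermost annotated end of Il7r, from which the match is at -77 to -69. Of 32851 RefSeq promoter windows of the same length, 300 bases with 250 before and 50 after the start, 8.3% hold at least 1 such match and 0.457% hold 2 or more. The hexamer TGTTCT, a core of steroid receptor elements,, searched on both strands, has no match in either window, and 19.0% of all windows hold it. A match of letters describes the sequence and says nothing of binding in these mice.

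Dye layout matters for every value that follows. On 6 arrays the castrated mouse was labelled with Cy5, and on the other 3, called swapped here (young bone 3, young marrow 2 and old 2), it was labelled with Cy3. The labels describe all 9 arrays as castrated hybridised against sham, so the deposited value was read as castrated over sham on each array, which is likely but not stated. The other reading, Cy5 over Cy3 throughout, turns the sign of the 3 swapped arrays and is given beside each member as the channel reading. The readings do not differ on the 6 unswapped arrays. No log base is given in the sources used here, and 2 was assumed.

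**Figure D1:**
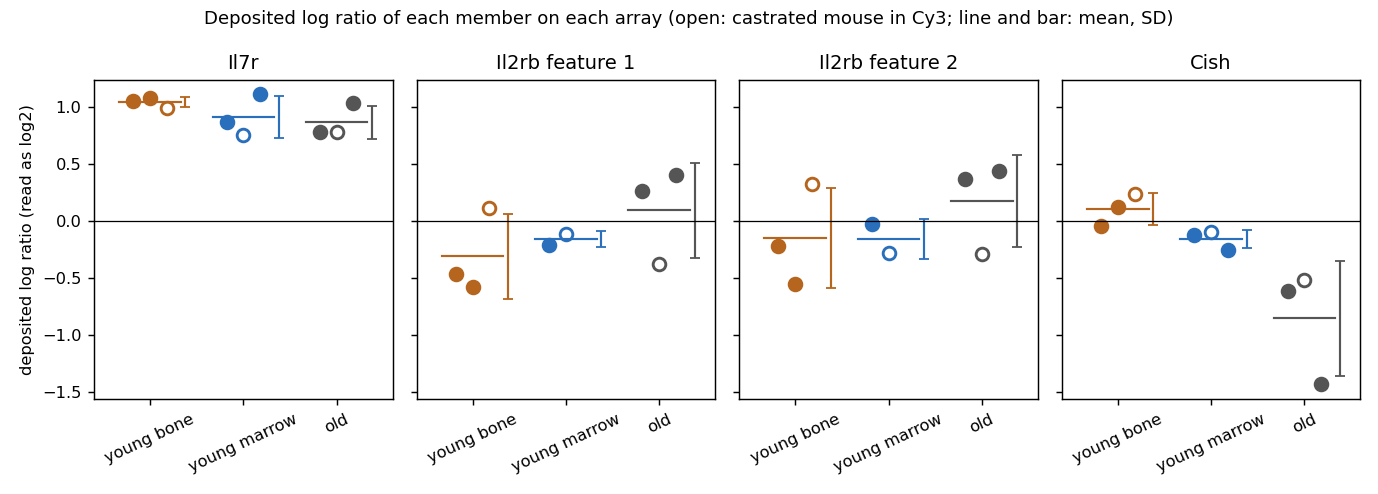
Deposited log ratio (castrated over sham, taken as log2) of the 4 member features on each of the 9 arrays, by group, with swapped arrays drawn with their own symbol. Il7r lies between 0.75 and 1.11 on every array, Il2rb lies on both sides of 0 with the swapped array opposite to the others in young bone and in the old group, and Cish is lowest on the 3 old arrays.

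Il7r was higher in castrated than in sham mice on all 9 arrays. In young bone its log2 ratio was 1.05 in pair 1, 1.08 in pair 2 and 0.99 in pair 3. In young marrow it was 0.87, 0.75 and 1.11, and in the old specimens 0.78, 0.78 and 1.03. No array fell below 0.75, and the ranges of the 3 groups overlapped. The means were 1.04 ± 0.046 in young bone, 0.91 ± 0.183 in young marrow and 0.863 ± 0.144 in the old specimens (SD, n = 3 each). With a dye term in the model the average over the groups was 0.91 (SE 0.06), a 1.88-fold ratio if the base is 2. The 3 group estimates on that scale were 1.02, 0.89 and 0.84 (SE 0.09 each), or 2.02-fold, 1.85-fold and 1.79-fold.

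The Il7r ratio also varied little from array to array. Its SD over the 9 arrays was 0.143, against a median of 0.203 over the 7544 features with all 9 values. Of those features, 138 were above 0 on all 9 arrays, or 1.83%. Only 3 had a lowest value of at least 0.75, picked out here after their values were seen: Vpreb3, a gene of precursor B cells, at 0.85, Bach2, a transcription factor of B cells, at 0.78, and Il7r itself. A second Bach2 feature had a lowest value of 0.43, so Bach2 met that mark on 1 feature only. By its average Il7r ranked 16 from the top among all tested features. Within single arrays its ratio stood between percentile 99.6 and 99.9 on 8 arrays, and at 91.6 on old array 1. That array has the widest spread of all, an SD of 0.454 against 0.192 to 0.294 on the other 8, and 736 features lay above Il7r there.

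**Figure D2:**
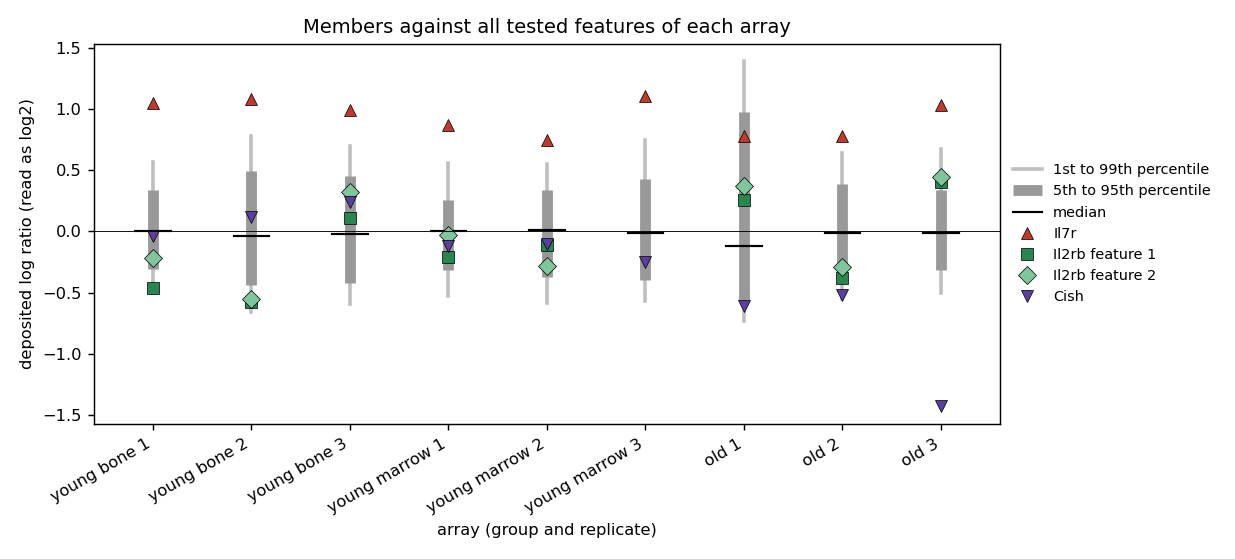
Log ratios of the tested features on each of the 9 arrays (taken as log2), as grey bars for the percentile ranges named in the legend and a line for the median, with the member features marked. Il7r lies above both bars on 8 arrays and inside them on the wider old array 1, and Cish lies at the bottom of old array 3.

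The Il7r value rests on the reading of the swapped arrays. On the 6 unswapped arrays, where no reading has to be chosen, its mean was 0.987. The castrated mouse was in Cy5 on all 6, so castration and dye cannot be told apart on these arrays alone. Under the channel reading the swapped arrays became -0.99, -0.75 and -0.78, the average fell to 0.07 (SE 0.06), and the ratio moved into the dye term, which was then 0.91 instead of 0.07. The spread within groups was 0.137 as deposited and 1.06 with the swapped arrays turned (pooled SD).

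**Figure D3:**
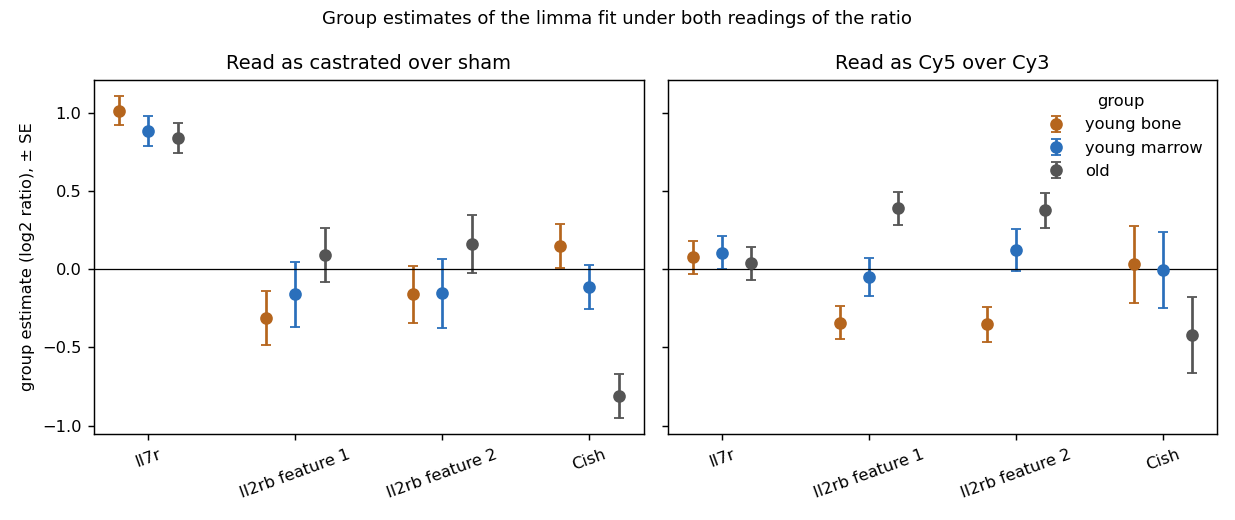
Group estimates of the 4 member features with their SE (log ratio, taken as log2) under the deposited reading and under the channel reading, for young bone, young marrow and the old specimens. Il7r goes from 0.84 to 1.02 under the first to 0.04 to 0.11 under the second, while the Il2rb estimates move away from 0 in young bone and in the old group.

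Il2rb showed no steady direction, and in young bone and the old specimens the swapped array had the opposite sign to the others. Feature 1 read -0.46, -0.58 and 0.11 in young bone, -0.21 and -0.11 in young marrow pairs 1 and 2, and 0.26, -0.38 and 0.40 in the old specimens. Feature 2 read -0.22, -0.55 and 0.32 in young bone, -0.03 and -0.28 in young marrow, and 0.37, -0.29 and 0.44 in the old specimens. In young bone the unswapped pairs lay below 0 and the swapped pair above it, and in the old specimens the reverse held. In young marrow both arrays lay below 0 on both features, whatever the layout. Neither feature has a value on young marrow array 3, so n = 8 and the fit used the arrays present.

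The 2 Il2rb features carry the same accession and are repeat measurements of 1 transcript, not replicates. They had the same sign on all 8 arrays, and differed by a median of 0.14 (range 0.03 to 0.24). Across 572 feature pairs that share an accession, the median of that difference was 0.06 and the 90th percentile 0.155. The sign pattern of Il2rb is thus seen by both features, and it is shared by 58 of 8296 features with the values needed, or 0.699%. Averaged over the groups, the fit gave -0.13 (SE 0.11) for feature 1 and -0.05 (SE 0.12) for feature 2, both within 2 SE of 0.

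Under the channel reading the Il2rb arrays fell together within young bone and within the old group. Young bone then ran from -0.58 to -0.11 for feature 1 and from -0.55 to -0.22 for feature 2, and the old specimens from 0.26 to 0.40 and from 0.29 to 0.44. The group estimates were -0.34 and -0.35 in young bone, and 0.39 and 0.38 in the old specimens. Young marrow gave -0.05 and 0.125 from 2 arrays. The pooled SD within groups was 0.191 and 0.153 under that reading, against 0.353 and 0.385 as deposited, so Il2rb and Il7r differ in which reading brings their replicates together. The part of the dye layout in the Il2rb pattern was not tested.

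Cish was near 0 in the young groups and low in the old specimens. Its log2 ratio in young bone was -0.04, 0.12 and 0.24, and in young marrow -0.12, -0.10 and -0.25. In the old specimens it was -0.61, -0.52 and -1.43. Every old array lay below every young array, with a gap of 0.27 between the highest old and the lowest young value, an order that 130 of 7544 features share (1.72%). The means were 0.107 ± 0.14, -0.157 ± 0.081 and -0.853 ± 0.501 (SD, n = 3 each). The fitted old value was -0.81 (SE 0.14), a ratio 1.75-fold lower in castrated mice if the base is 2, and the fourth lowest old estimate of all tested features.

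The lowest Cish value came from old array 3. There Cish was the second lowest of all features, with 1 feature below it. Without that array the old estimate was -0.565, and without old array 1 or 2 it was -0.975 or -0.949. Under the channel reading the old arrays read -0.61, 0.52 and -1.43, they overlapped the young ones, and the old estimate was -0.42 (SE 0.24). On the unswapped old arrays, -0.61 and -1.43, the readings do not differ, but there too castration and dye cannot be told apart.

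Against the other features, the share called in a group was small. In limma's moderated test with Benjamini-Hochberg adjustment at 0.05, 2.01% of 8885 features were above 0 and 2.03% below 0 in the average of the groups. The shares above and below were 0.225% and 0.0338% in young bone, 0.732% and 0.113% in young marrow, and 0.608% and 0.124% in the old specimens. Il7r was among those above 0 in the average and in each group, and Cish among those below 0 in the old specimens. Neither Il2rb feature was among them. Over 17 alternatives Il7r was among them in 16 for the average, all but the channel reading, and by group in 13 (young bone), 14 (young marrow) and 13 (old specimens). It was lost in each group under the channel reading, on the unswapped arrays and without that group's swapped array, and in young bone and the old specimens also with scaled arrays. Cish was among them in only 6 of 17, and was lost under the channel reading, on unswapped arrays, with median centring, with scaling, without any 1 of the 6 young arrays and without old array 2. These contrasts chose the genes, so nothing is read from these counts.

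Differences between the groups are given with their SE as a description, since the members were chosen on these ratios by group. For Il7r, young marrow minus young bone was -0.13, old minus young marrow -0.05 and old minus young bone -0.18 (SE 0.13 each). For Cish, old minus young marrow was -0.70, old minus young bone -0.96 and young marrow minus young bone -0.26 (SE 0.20 each). As deposited, the Cish differences of the old specimens from both young groups thus lay more than 2 SE from 0, and the Il7r differences within 2 SE. No difference of a member passed the limma threshold. Over all tested features, 0 passed for each young marrow contrast and 1 for old minus young bone. For Il2rb, old minus young bone was 0.40 (SE 0.24) for feature 1 and 0.32 (SE 0.25) for feature 2. Both were 0.73 under the channel reading (SE 0.14 and 0.15), and the Cish differences of the old specimens were -0.42 from young marrow and -0.45 from young bone (SE 0.34 each).

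Markers of the B lineage, taken as their median, shared the sign of Il7r on every array. The B lineage list, in which Il7r was not counted, had 11 tested features of 9 genes out of 22 listed. In the average 10 of them were above 0 by the same limma test, where 2.01% of all tested features were. The list had a median of 0.87 against 0.00 over all tested features. The median of that list lay between 0.49 and 1.02 on the 9 arrays, and was above 0 on each. Under the channel reading its median was 0.02, so it turned in the same way as Il7r. The granulocyte list, 10 tested features of 7 genes out of 16 listed, ran the other way. By that limma test 10 of 10 were below 0 in the average, where 2.03% of all tested features were. Its array medians ran from -0.62 to -0.25, and its median under the channel reading was 0.02. The part of these cell types in the Il7r ratio was not tested.

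T cell and natural killer markers, the cells in which Il2rb is prominent, were thinly covered. Of 18 T cell genes 3 were tested, Cd4 at -0.14, Cd247 at 0.18 and Thy1 at -0.30 in the average, and none passed. Of 12 natural killer genes only Ncr1, an activating receptor of these cells, was tested. Its ratios were -0.06, -0.29 and 0.08 in young bone, -0.25, -0.01 and 0.13 in young marrow, and 0.22, 0.22 and 0.17 in the old specimens. Ncr1 was thus above 0 on all old arrays, the swapped one included, where Il2rb was below 0. Their part in the Il2rb ratios was not tested.

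For Cish the list to set beside it is the erythroid one, since erythropoietin signals through Stat5. Its 9 tested features, of 5 genes out of 14, had array medians of -0.16, -0.36 and 0.25 in young bone, 0.05, 0.54 and -0.29 in young marrow, and 0.18, -0.01 and -0.70 in the old specimens. The lowest of these falls on old array 3, where Cish was -1.43. Tfrc, the transferrin receptor, supplies 5 of the 9 features and so weighs on that median, and its features lay between -1.16 and -0.70 there. Fech and Kel were at -0.54 and -0.47 on that array, while Ank1, an anchor of the red cell membrane skeleton, and Hbb-b1, a beta globin, were above 0 at 0.18 and 0.16. On old arrays 1 and 2, where Cish was -0.61 and -0.52, the erythroid median was 0.18 and -0.01. Ank1 was at -0.59 and -0.62 there, Hbb-b1 at 0.32 and -0.04, Kel at 0.02 and 0.12, and Fech at -0.17 and 0.10. The Tfrc features lay between 0.09 and 0.37 on old array 1 and between -0.05 and 0.09 on old array 2. The part of erythroid cells in the Cish ratio was not tested.

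**Figure D4:**
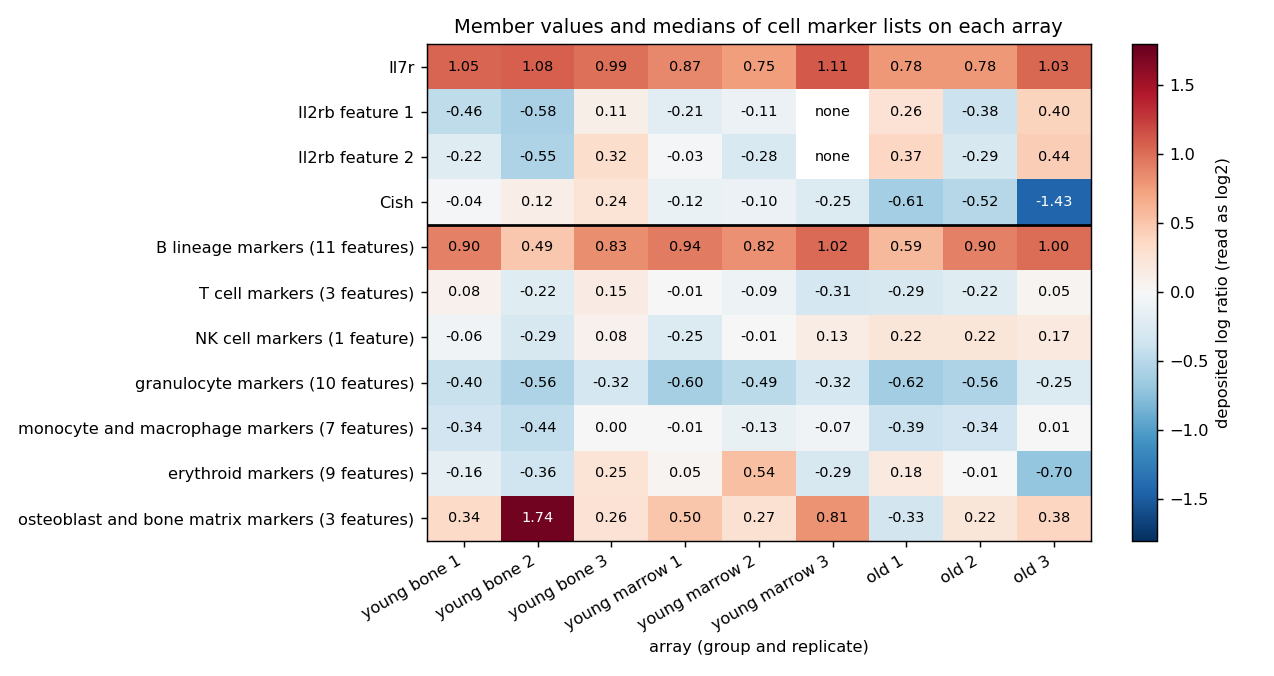
Log ratios (taken as log2, deposited reading) of the member features and the median of each cell type list on the 9 arrays, as a colour scale with the values printed. Il7r and the B lineage median are above 0 on every array and the granulocyte median is below 0 on every array, and the erythroid median is lowest on old array 3.

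With Il7r and the other members left out, no tested gene of the Il7r pathway was higher in castrated mice by the test. Of 62 genes listed as its ligands, receptors, kinases, inhibitors and targets, 21 were tested through 41 features, with a median of 0.00 in the average, the same as over all tested features. None was above 0 and 2 were below 0 by the limma test in the average, and 5 of the 41 had an unadjusted p under 0.05, where 16.2% of all tested features did. Bcl6, a transcriptional repressor that Stat5 represses, averaged -0.31 (SE 0.05, limma adjusted p = 0.010), and Id2, an inhibitor of helix-loop-helix factors, averaged -0.32 (SE 0.08, limma adjusted p = 0.044). Both were below 0 on all 9 arrays as deposited. Bcl6 alone passed in a single group, young bone, where its arrays read -0.59, -0.52 and -0.67. None passed in young marrow or in the old specimens, where 4 and 3 of the 41 features had an unadjusted limma p under 0.05, against 10.5% and 18.2% of all tested features. Under the channel reading Bcl6 was -0.02 and Id2 0.08, and no pathway feature passed limma's threshold in the average, with 4 at an unadjusted p under 0.05 against 4.7% of all tested features.

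By role, the tested partners of the members were mostly close to 0. The common gamma chain, Jak3 and Stat5 had no tested feature, so their ratios are unknown. Among common gamma chain ligands and receptors only Il4ra, at -0.04 and -0.07 in the average for its features, and Il2, at 0.02, were tested. The Jak and Stat features, 17 of 5 genes, had a median of 0.04. Jak1, the kinase bound to both receptor chains, read 0.04 to 0.09 over 5 features. Stat2, which acts in interferon signalling, read 0.18 on both of its features and did not pass, and Stat4 was at -0.19.

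Cish belongs to the Socs family, whose other tested members did not pass. The Socs feedback list had 6 features of 4 genes, with a median of 0.02 in the average and none past the threshold. Socs2, an inhibitor of growth hormone signalling that Stat5 also induces, was 0.77, 0.63 and 0.69 in young marrow on 1 feature. Its second feature read 0.18, 0.13 and 0.02 on the same arrays, so the features disagree. In the old specimens, where Cish was low, Socs2 read -0.37, -0.02 and 0.10 on the first feature and -0.01, 0.01 and -0.03 on the second.

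Other Stat5 targets read near 0 in the average: Myc, a growth regulator, at -0.04, Bcl2 and Bcl2l1, survival genes, each at 0.00, and Ccnd3, a cyclin of lymphoid precursors, at -0.10. Of the other receptors that activate Stat5, Il3ra read -0.20 and -0.17 and Ghr, the growth hormone receptor, 0.03 and 0.07. None of these passed in the average. These values lie well below the 0.91 of Il7r in size.

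**Figure D5:**
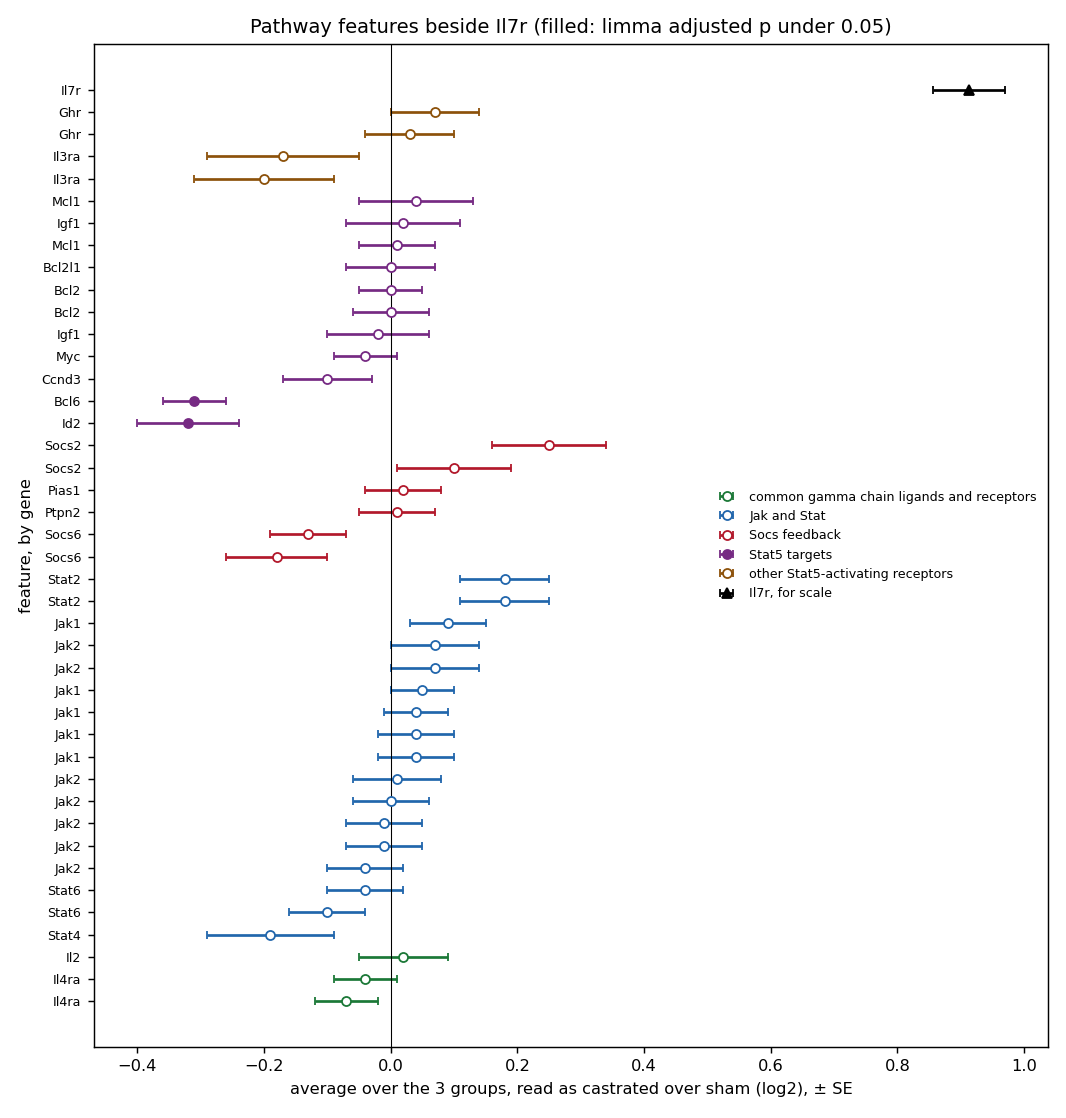
Average log ratio with its SE (taken as log2, deposited reading) of the 41 tested pathway features, coloured by list, beside Il7r, with filled points for features past the threshold. Il7r at 0.91 lies away from all of them, and Bcl6 and Id2 are the features that passed the threshold.

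Features whose ratios rose and fell over the arrays like those of a member were sought by Pearson's r among 2753 features with all 9 values and an SD of at least 0.2. The arrays differ in dye layout, tissue and age, none of which was taken out before r was computed, and r is given as a description. For Il7r the 10 highest were Cstb (0.88), Auts2 and Timp2 (0.85 each), Mmp16 and 4933411K16Rik (0.84 each), Id2 and Ier3ip1 (0.83 each), Zfp781 (0.82), Mrps10 (0.81) and Vdac3 (0.80). Il7r itself had an SD of 0.143, below the 0.2 asked of the compared features, so its r values rest on small differences between arrays. The features named were picked as the highest of 2753 by r. Likeness here is in the order of the arrays and not in size: Id2 ran from -0.71 to -0.04 where Il7r ran from 0.75 to 1.11. For Il2rb, as the mean of its features over 8 arrays, the highest were Cds2 (0.92), Ano6 (0.91), Il1r2 and Cdk6 (0.88 each) and Cbx5 (0.87). For Cish they were Frmd4a and Yod1 (0.82 each), Brca2 (0.80), Rps24 (0.78) and Phf6 (0.77).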

How the data were processed

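Total RNA of castrated and sham-operated mice was labelled with Cy5 or Cy3 and hybridised in pairs, per the labels' protocols. The authors deposited 1 log ratio per feature and array, read here as log2. The background correction, normalisation, log base and direction are not given in the sources used here. Each array's mean was within 0.0021 of 0, so the values look centred, and 8290 to 10995 features per array have a value. The number of arrays limits the precision.

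Of 11552 features, 8050 carry 1 gene symbol in the platform annotation (7880 matched by gene ID to the RefSeq table), 672 carry several and 2830 are not listed. The 8885 features with at least 2 values per group and at least 1 on a swapped array were tested. Each feature got a linear model, with a term for each group and 1 for dye layout, fitted with limma 3.58.1 in R 4.3.3, with moderated variances, missing values left out and Benjamini-Hochberg adjustment over all tested features (threshold 0.05). The script was tested on simulated data. Mouse pairs are the replicates, 3 per group.

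The members and lists were chosen with earlier results of these data known. Genes named are all member features, pathway genes past the threshold, otherwise the 2 to 4 per list with the smallest p, and the 10 or 5 features most like a member, plus a few singled out in the text after their values were seen. Promoter sequences came from RefSeq (GRCm38.p6) and matched 2 of the 3 members. Alternatives were the channel reading, unswapped arrays only, median centring, scaling, no dye term, features with all 9 values, array weights, the pair number as a block, and each array left out.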

Additional observations from a re-analysis of the deposited data

How the results depend on the processing

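The Il7r ratio kept its direction under the alternatives that keep the deposited reading. Under the channel reading no direction was left: the average was 0.073 (SE 0.064), young bone 0.076, young marrow 0.106 and the old specimens 0.039. The unswapped arrays alone gave 1.065 in young bone. The channel reading moved young marrow to -0.05 and 0.125 for the Il2rb features and to -0.004 for Cish. With 1 array left out at a time, Il7r stayed between 0.893 and 0.937 in the average, 0.974 and 1.035 in young bone, 0.81 and 0.94 in young marrow, and 0.78 and 0.905 in the old specimens. Cish in the old specimens ranged from -0.975 to -0.565, with young marrow from -0.175 to -0.01. Il2rb changed sign: feature 1 ranged from -0.276 to 0.043 in the average, -0.701 to -0.175 in young bone and -0.06 to 0.531 in the old specimens (-0.06 without old array 3), feature 2 from -0.234 to 0.099, -0.637 to 0.05 (0.05 without young bone array 2) and 0.04 to 0.553. Array weights put the old Il2rb estimates at -0.154 and -0.033. The cause was not tested.

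Pathway features past the threshold in the average numbered 2, against 0 under the channel reading and on unswapped arrays only, 1 with median centring or scaling, 4 with array weights, and 0 to 2 with 1 array left out. Over all features the 359 calls became 0 under the channel reading, 86 on unswapped arrays, 1056 with array weights and 96 to 574 with 1 array left out. Features with all 9 values gave Il2rb no value.

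The pair numbers were not taken as pairing the groups. In their deviations from the group means, same-numbered arrays of different groups correlated between -0.37 and 0.60. By the same measure, 6 of 9 arrays correlated best with an array of their own number. With the number as a block, 411 features were called, and Il2rb feature 1 in young marrow was 0.019. The unknown signal over background limits what can be said of dim features.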

Other observations

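The features can be described by which reading brings replicates together. Of 7544 features with all 9 values, 5042 (66.8%) had a smaller pooled SD within groups as deposited than with the swapped arrays turned. Among the 1157 with a mean absolute ratio of at least 0.3 on the unswapped arrays it was 959 (82.9%), and among the 122 at or above 0.5 it was 112 (91.8%). Il7r and Cish are among the majority in this respect, and both Il2rb features are among the minority.

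The osteoblast and bone matrix list, 3 features of 3 genes, had array medians of 0.34, 1.74 and 0.26 in young bone, 0.50, 0.27 and 0.81 in young marrow, and -0.33, 0.22 and 0.38 in the old specimens, and none of its features passed the threshold in the average. The monocyte and macrophage list had 3 of 7 features past the threshold below 0 in the average, where 2.03% of all tested features were. The list median was -0.11.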
